A study of Homo sapiens with 8 samples.

Results

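The genes examined here were 10 genes of muscle calcium handling, taken from the deposited expression table by gene symbol: CACNA1S, CACNB1, STAC3, RYR1, RYR3, TRDN, JPH1, CASQ2, ATP2A1 and ATP2A2. Each symbol stood on 1 of the 60234 rows of the table. Expression was measured in Rh41, an established human line of alveolar rhabdomyosarcoma that is positive for the PAX3-FOXO1 fusion, a tumour cell with features of skeletal muscle precursors. The labels name a group CTR, whose knockdown field reads control, and a group siG9a, with 4 libraries each and replicate numbers 1 to 4 in both. EHMT2 encodes G9a, an enzyme that methylates histone H3 and is mostly tied to gene silencing. All libraries came from this single line, the sequence of the knockdown reagent and the nature of the control are not given in the sources used here, and the series title writes shG9a where the sample labels write siG9a.

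In skeletal muscle, the depolarisation of the surface membrane is read in its inward folds, the t-tubules, by a calcium channel that serves as a voltage sensor (pore subunit CACNA1S, cytosolic beta subunit CACNB1, adaptor STAC3). The sensor opens ryanodine receptors in the facing sarcoplasmic reticulum, mainly RYR1, with RYR3 as a second form found mostly in developing muscle. Calcium released in this way starts contraction, and SERCA pumps return it to the store: ATP2A1 encodes SERCA1, the form of fast and newly formed fibres, and ATP2A2 encodes SERCA2, whose widely expressed form serves most cell types. JPH1 holds the membranes together, TRDN anchors the release complex, and CASQ2 binds calcium inside the store.

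The libraries were made from transcript 3′ ends, so a transcript gives reads regardless of its length, and held 1458825 to 1938665 reads assigned to genes. Values are CPM, the authors' counts scaled to a common library size, in which a read was worth 0.516 to 0.685 CPM. EHMT2 lay between 57.6 and 88.3 CPM in CTR and between 19.6 and 58.5 CPM in siG9a, and the siG9a value was lower in 4 of 4 pairs of equal replicate number. Its difference was −1.10 in log2(CPM + 1), with a limma adjusted p of 0.191 by group alone and 0.000472 with the replicate number as a block. Both libraries numbered 3 stood apart: MYOD1, the muscle lineage factor, was at 95.3 CPM in CTR and 128 CPM in siG9a replicate 3, and at 608 to 864 CPM in the other 6 libraries. The summed level of 12 epithelial and neural markers, led by NEFM, was 10207 and 9231 CPM in the libraries numbered 3. It was 287 and 328 CPM in those numbered 1, and 2040 to 3112 CPM in those numbered 2 and 4. The other libraries were thus not alike. Mitochondrially encoded genes took 9.18%, 5.58%, 4.68% and 4.59% of reads in CTR replicates 1 to 4 and 13.7%, 11.4%, 6.53% and 5.21% in siG9a. This share was higher in siG9a in 4 of 4 pairs, so it moved with the paired comparison, and its part in the paired results was not tested. In bulk samples such as these, fewer cells of a type and less RNA per cell cannot be told apart.

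Of the calcium handling genes, ATP2A1 showed the largest difference: its mean was 4.23-fold lower in siG9a, while its relative ATP2A2 was at 126 ± 20.8 CPM in CTR and 132 ± 16.1 CPM in siG9a (SD, n = 4 each). RYR3 was 2.23-fold lower in siG9a, and RYR1 1.29-fold lower, the latter not past an adjusted p of 0.05 in any fit tried. The levels in CTR ran in the order STAC3, ATP2A2, RYR1, RYR3, ATP2A1, CACNB1, JPH1, CASQ2, TRDN and CACNA1S. Of neighbours in this order, the CTR ranges of CASQ2 and TRDN did not overlap and those of every other pair did. In siG9a ATP2A1 stood below CACNB1 and JPH1, the order of the others was the same, and the neighbours whose ranges did not overlap were RYR3 with CACNB1, and TRDN with CACNA1S, which was at 0. The reads do not depend on transcript length, but genes may differ in how well their ends are primed. A mean of at least 1 CPM over the 8 libraries was required for testing, which 9 of the 10 genes reached, and CACNA1S did not.

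Without regard to replicate number, limma on log2(CPM + 1) with Benjamini-Hochberg adjustment over 15092 genes called 0 of the 9 at an adjusted p under 0.05. The background was 0 calls among all genes tested (0.0%), with 1880 at an unadjusted p under 0.05 (12.5%). At that unadjusted level the 9 genes gave 1, ATP2A1. On the reads recovered from the CPM values, which came out whole for 100% of the values above 0, edgeR without the replicate number called 0 of the 9, and DESeq2 called ATP2A1 (291 of all genes, 1.93%). With the replicate number as a block, called paired from here on, limma called ATP2A1 and RYR3, both lower, where 6.52% of all genes tested were called lower, 4.86% higher and 11.4% in either direction. edgeR and DESeq2 with the block called the same genes of the 9, against 1741 (11.5%) and 969 (6.42%) of all genes. DESeq2 gave no adjusted p for TRDN, nor, with the block, for CASQ2. Its percentages are still of all 15092 genes, including those without an adjusted p. The median difference (siG9a minus CTR, log2(CPM + 1)) of the 9 genes was −0.29, against 0.01 over all genes tested, and 7 were negative and 2 positive.

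**Figure D1:**
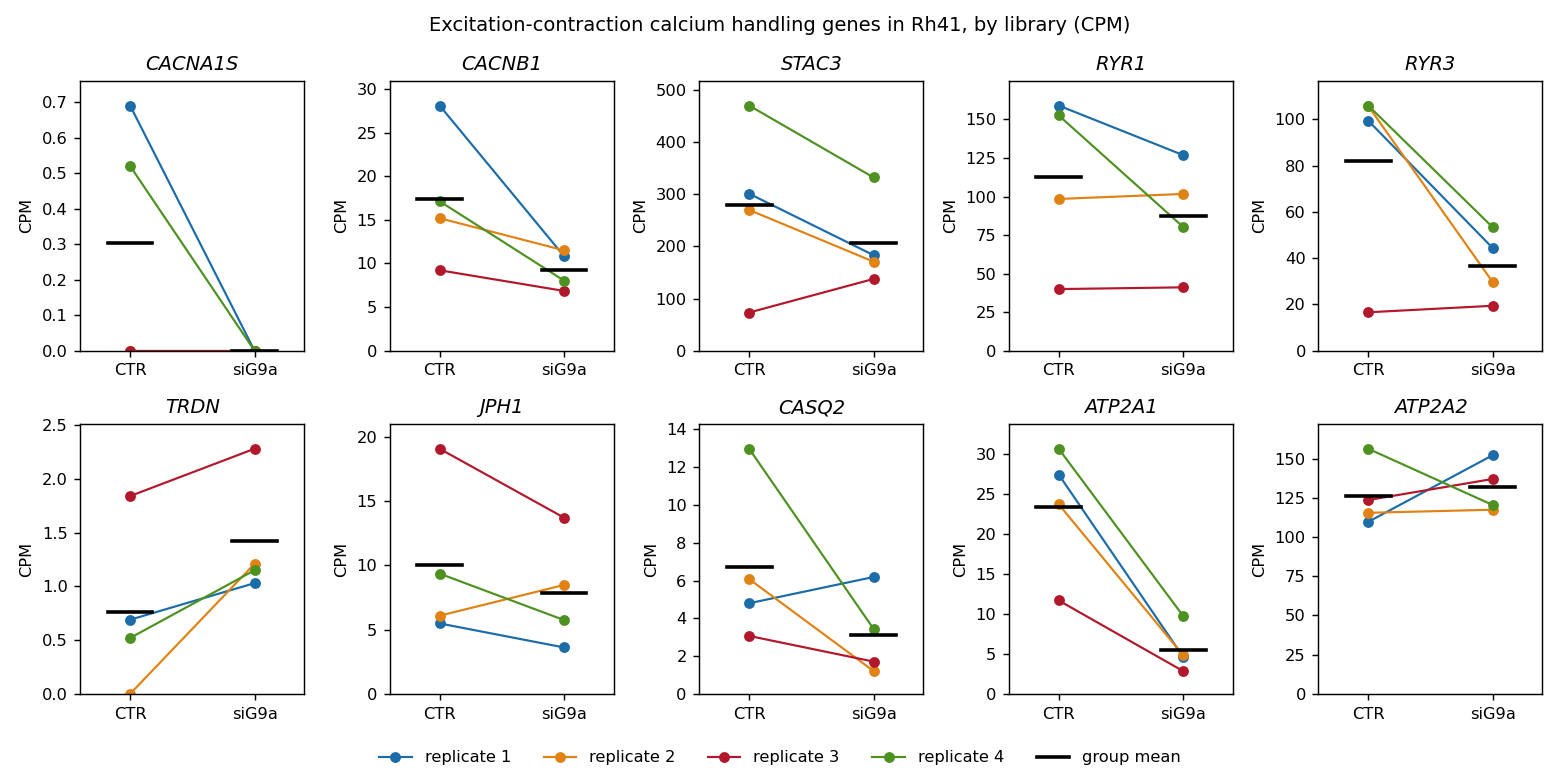
CPM of each of the 10 genes in the 4 CTR and 4 siG9a libraries, with lines joining libraries of equal replicate number and black bars at the group means; each panel has its own axis from 0. ATP2A1 is the gene whose groups do not overlap, with 11.7 CPM as the lowest CTR value and 9.75 CPM as the highest siG9a value.

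The voltage sensor complex was uneven. CACNA1S, the pore subunit, had 1 read in CTR replicates 1 and 4 and none in the other 6 libraries, at most 0.69 CPM, so no fold is given. A count of 3 reads, the limit that a count of 0 allows, is 1.55 to 2.06 CPM in these libraries. CACNB1, whose product carries the channel to the membrane, measured 28.1, 15.2, 9.22 and 17.1 CPM in CTR replicates 1 to 4 and 10.8, 11.5, 6.85 and 8.03 CPM in siG9a. It was lower in 4 of 4 pairs, as were 15.3% of all genes tested, but CTR replicate 3 lay inside the siG9a range. The difference was −0.76 ± 0.29 (SE) with an adjusted p of 0.0954 in the paired limma fit and 0.415 without the block, so it did not pass the threshold.

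STAC3, the adaptor that muscle needs for voltage-gated release, had the highest level of the 10. It measured 301, 270, 73.2 and 470 CPM in CTR and 183, 171, 138 and 332 CPM in siG9a, replicates 1 to 4. In pairs 1, 2 and 4 siG9a held 60.9%, 63.3% and 70.7% of the CTR value, and in pair 3, where the CTR library was the lowest of all 8, 188%. The difference over 4 pairs was −0.24, with a 95% interval of −0.64 to 0.15 and an adjusted p of 0.470 in the paired limma fit. It was −0.085, −0.10 and −0.16 without pair 1, 2 or 4 in that fit, with adjusted p-values of 0.8767, 0.8575 and 0.7305. Without pair 3 it was −0.62 with an adjusted p of 0.0321 in the same fit, where 7.14% of all genes were called. Without the block STAC3 did not pass, with an adjusted p by limma of 0.239 without both libraries numbered 3 (the same difference) and 0.179 without CTR replicate 3 (a difference of −0.79). The part of the other markers of these libraries was not tested.

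Of the release channels, RYR3 was called in the paired fits of all libraries and RYR1 was not. Without the block, limma, edgeR and DESeq2 on all libraries called neither. The difference between the channels was not tested. RYR1 measured 159, 98.4, 39.97 and 153 CPM in CTR and 127, 102, 41.1 and 80.3 CPM in siG9a. It was lower in 2 of 4 pairs and higher in 2, and the groups overlapped. The paired difference was −0.29, with a 95% interval of −0.65 to 0.07 and an adjusted p of 0.321 by limma.

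RYR3 measured 99.4, 106, 16.6 and 106 CPM in CTR and 44.4, 29.7, 19.4 and 53.3 CPM in siG9a. Outside replicate 3 the CTR values were close together and the siG9a values were all below them, at 44.6%, 28.1% and 50.4% of their pair's CTR value. In pair 3 the siG9a value was 117% of the CTR value. In the paired limma fit RYR3 fell by 0.93 on the log2 scale, with an SE of 0.23 and an adjusted p of 0.0102. Without the block the adjusted p was 0.516 by limma with all libraries, 0.0246 without CTR replicate 3 (1.99% of all genes called) and 0.00964 without both libraries numbered 3 (2.74% called), the latter chosen after seeing the data. The size moved with these libraries, from −0.93 to −1.57 without CTR replicate 3, −0.66 without siG9a replicate 3 and −1.31 without both. The paired call was lost when pair 1, 2 or 4 was left out, with differences of −0.85, −0.64 and −0.91 and adjusted p-values of 0.0654, 0.179 and 0.0503.

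As a share of the reads on both channels, RYR1 held 61.5%, 48.2%, 70.7% and 59.04% in CTR and 74.1%, 77.4%, 67.9% and 60.1% in siG9a. The 95% Wilson intervals, which cover counting error only, did not overlap between the members of pair 1 (56.5% to 66.3% against 69.1% to 78.5%) or pair 2 (42.9% to 53.6% against 71.4% to 82.5%). They overlapped in pairs 3 and 4.

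TRDN and CASQ2 were near the limit of the depth, and JPH1 had 7 to 31 reads per library. TRDN had 0 to 4 reads in every library, at or under 3 reads in 7 of 8, and although it was higher in 4 of 4 pairs (14.9% of all genes tested were), the paired limma adjusted p was 0.514. Its antisense neighbour TRDN-AS1 lies over it, and the sources do not say if strand was used in counting. CASQ2 measured 4.80, 6.08, 3.07 and 12.98 CPM in CTR and 6.19, 1.21, 1.71 and 3.44 CPM in siG9a. It was lower in 3 of 4 pairs, with a difference of −0.90, a 95% interval of −1.76 to −0.04 before adjustment and an adjusted p of 0.172 in the paired limma fit. JPH1 measured 5.48, 6.08, 19.06 and 9.35 CPM in CTR and 3.61, 8.47, 13.7 and 5.74 CPM in siG9a. It was highest in replicate 3 of either group, unlike the channels, and its adjusted p was 0.654 in the same fit.

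ATP2A1 and ATP2A2, the reuptake pumps among the genes examined, parted. ATP2A1 measured 27.4, 23.7, 11.7 and 30.6 CPM in CTR and 4.64, 4.84, 2.85 and 9.75 CPM in siG9a, from 19 to 59 reads and from 5 to 17 reads. The lowest CTR library was above the highest siG9a library, which was so for 3.45% of all genes tested (3.88% in the other direction), and the groups of the other 8 genes overlapped. Within pairs, siG9a held 16.9%, 20.4%, 24.4% and 31.8% of the CTR value. In the paired limma fit ATP2A1 fell by 1.92 on the log2 scale, with an SE of 0.30, a 95% interval of −2.54 to −1.30 and an adjusted p of 0.000149. Without the block the adjusted p was 0.109 by limma, 0.0163 without CTR replicate 3, and 0.00244 by DESeq2. The call stood in each of the 10 fits with the block, among them those without pair 1, 2, 3 or 4.

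ATP2A2 measured 110, 115, 124 and 156 CPM in CTR and 152, 117, 137 and 120 CPM in siG9a. The groups overlapped throughout, with a difference of 0.07, a 95% interval of −0.26 to 0.40 and an adjusted p of 0.845 in the paired limma fit. ATP2A1 accordingly made up 20.0%, 17.0%, 8.64% and 16.4% of the reads on both pumps in CTR and 2.96%, 3.96%, 2.04% and 7.49% in siG9a. The share averaged 15.5 ± 4.85% in CTR against 4.11 ± 2.38% in the knockdown (SD over 4 libraries), with no overlap. The 95% Wilson intervals of pairs 1, 2, 3 and 4 did not overlap either, the closest being 5.60% to 13.1% against 0.875% to 4.69% in pair 3. ATP2A2 held most of the reads of this pair of pumps in every library of either group. ATP2A3, a further SERCA gene described below, was not part of this share. It averaged 27.8 CPM in CTR and 13.5 CPM in siG9a.

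**Figure D2:**
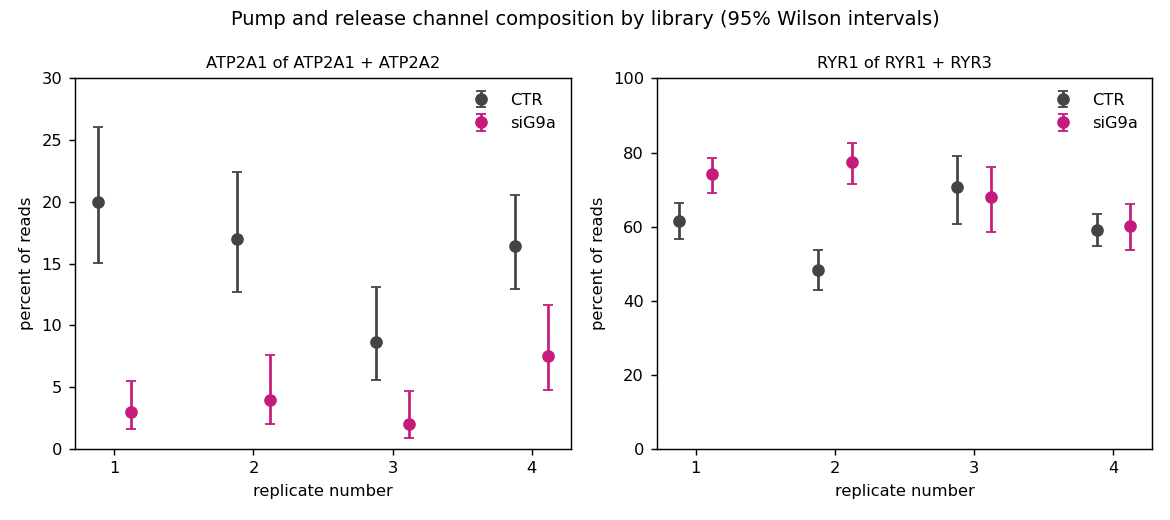
Percent of reads on ATP2A1 among ATP2A1 and ATP2A2 (left, axis to 30) and on RYR1 among RYR1 and RYR3 (right, axis to 100), by replicate number, with CTR in grey, siG9a in magenta and 95% Wilson intervals as bars. The ATP2A1 share is lower in siG9a at each of the 4 numbers, and the RYR1 share is clearly higher at numbers 1 and 2.

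To set both genes called in the paired fit beside ATP2A2, which was not called, windows around their transcription starts are shown. The windows are from RefSeq on GRCh38.p14, run from 250 bases before to 50 after the start, and are written in the direction of the gene. Capitals mark CANNTG, the E-box core that MYOD1-type factors bind, which reads the same on both strands, as does its form CAGCTG. The 3′ reads do not tell which start a transcript used, so both windows of ATP2A2 are given. Of the 2 ATP2A1 windows only the upstream one is printed, and the matches of both are counted below.
ATP2A1, chr16:28878238-28878537, plus strand: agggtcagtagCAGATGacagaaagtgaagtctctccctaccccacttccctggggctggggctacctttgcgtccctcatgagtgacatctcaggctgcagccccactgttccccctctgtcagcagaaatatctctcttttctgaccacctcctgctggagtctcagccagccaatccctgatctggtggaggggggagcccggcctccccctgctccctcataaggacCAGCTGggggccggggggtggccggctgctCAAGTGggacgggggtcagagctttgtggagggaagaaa
RYR3, chr15:33310717-33311016, plus strand: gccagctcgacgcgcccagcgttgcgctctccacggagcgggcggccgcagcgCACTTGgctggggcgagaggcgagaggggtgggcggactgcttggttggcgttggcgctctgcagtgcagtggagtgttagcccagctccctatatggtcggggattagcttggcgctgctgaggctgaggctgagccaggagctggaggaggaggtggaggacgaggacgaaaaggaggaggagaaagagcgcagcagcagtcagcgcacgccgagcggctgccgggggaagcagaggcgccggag
ATP2A2, chr12:110280366-110280665, plus strand: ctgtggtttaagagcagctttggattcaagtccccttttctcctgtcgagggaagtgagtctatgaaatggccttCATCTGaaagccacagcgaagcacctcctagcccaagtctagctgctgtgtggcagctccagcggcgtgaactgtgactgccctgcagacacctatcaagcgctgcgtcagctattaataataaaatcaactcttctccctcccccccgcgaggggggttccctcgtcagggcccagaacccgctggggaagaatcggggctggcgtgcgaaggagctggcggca
ATP2A2, chr12:110280997-110281296, plus strand: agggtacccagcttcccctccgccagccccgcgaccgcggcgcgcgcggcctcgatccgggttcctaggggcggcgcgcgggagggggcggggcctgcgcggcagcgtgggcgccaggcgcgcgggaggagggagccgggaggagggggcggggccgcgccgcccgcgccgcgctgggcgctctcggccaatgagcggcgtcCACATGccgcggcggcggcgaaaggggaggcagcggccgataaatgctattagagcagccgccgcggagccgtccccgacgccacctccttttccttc
The ATP2A1 window held 3 CANNTG matches, 1 of them CAGCTG, and a window at a further start of this gene held 0. CAGCTG was found in 2 of the 10 windows of the genes examined, this one of ATP2A1 and that of CACNA1S, which was not tested. RYR3 and each ATP2A2 window held 1 CANNTG match and no CAGCTG. Of 35116 windows of this length, 68.7% held CANNTG and 17.9% CAGCTG, so a match is common. The MEF2 motif, found in 2.99% of windows, matched in the upstream ATP2A2 window (2 overlapping matches) and in that of CASQ2 (1 match). Windows were at hand for 8 of the 10 genes, not for STAC3 and JPH1. A match is a string of letters and not a bound site.

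**Figure D3:**
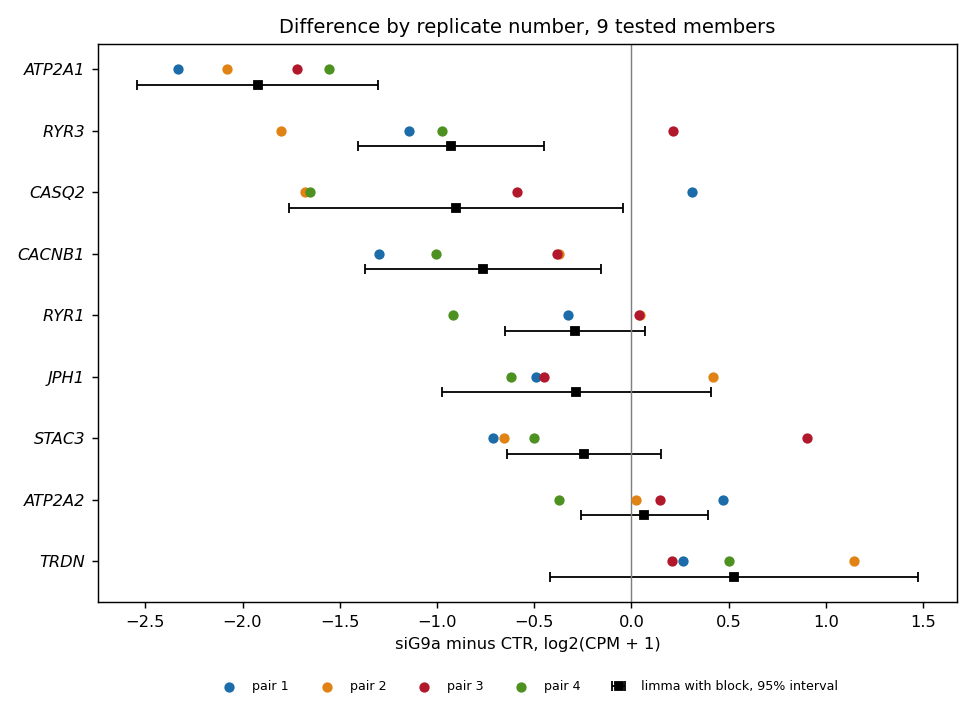
Difference siG9a minus CTR in log2(CPM + 1) for the 9 tested genes, as coloured points for the 4 pairs of equal replicate number and as a black square with a 95% interval for the paired limma fit. All 4 ATP2A1 points lie at −1.56 or below, and the pair 3 points of RYR3 and STAC3 lie above 0 while their other points lie below it.

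The replicate 3 libraries shared a pattern across the 10 genes. How often replicate 3 was lowest or highest over all genes was not counted, so the pattern is not shown to be particular to these. Replicate 3 was the lowest library for 6 of the 10 in CTR (CACNB1, STAC3, RYR1, RYR3, CASQ2 and ATP2A1) and for 5 in siG9a (the same without CASQ2), and the highest for JPH1 and TRDN in both groups. In CTR its distance from the mean of the other libraries was −2.57 for RYR3, −2.19 for STAC3 and −1.72 for RYR1, in log2(CPM + 1). In siG9a these distances were −1.05, −0.66 and −1.28. ATP2A2, by contrast, was inside the range of the other libraries in both groups. ATP2A1 was lower in siG9a in pair 3 also, where both libraries share this pattern, with a difference of −1.72 on the same scale.

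**Figure D4:**
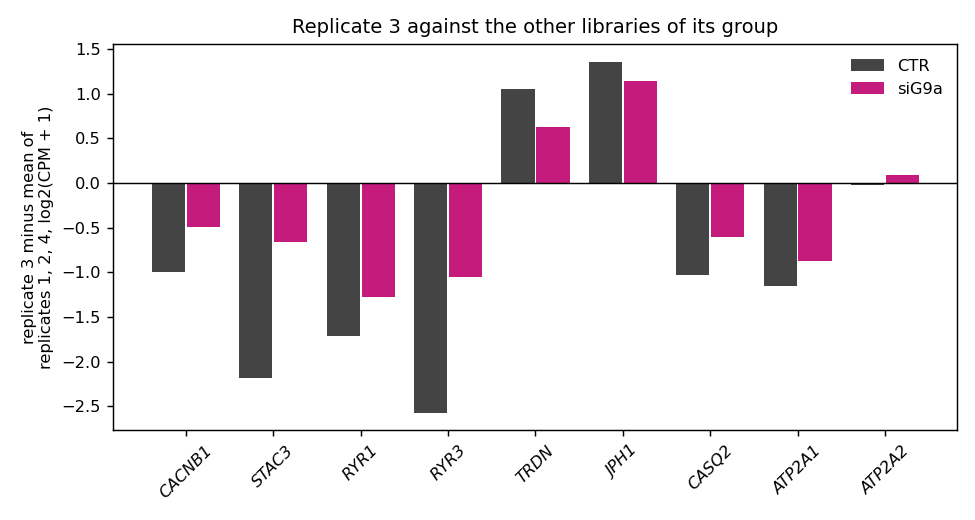
Replicate 3 minus the mean of replicates 1, 2 and 4 of the same group, in log2(CPM + 1), for 9 genes (CACNA1S is left out); grey bars are CTR and magenta bars siG9a. RYR3 in CTR is lowest at −2.57, JPH1 and TRDN are above 0 in both groups, and ATP2A2 is near 0.

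By the distance between centred log2(CPM + 1) profiles over the 8 libraries, among the 8898 genes averaging 10 CPM or more, those most like STAC3 were JAKMIP2, SEL1L3 and NPRL3, at root mean square distances of 0.21, 0.25 and 0.26. Those most like ATP2A2 were CPSF6, RRAGD and TUBG1, at 0.04, 0.08 and 0.08. The distances of ATP2A2 are small because its level varied little.

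Other genes of calcium handling were described in 4 lists of 76 genes in all, of which 56 were tested. Without the block limma called 0 of them, with 12 at an unadjusted p under 0.05, edgeR 0, and DESeq2 2 (ATP2B1 and CAV3). In the paired limma fit 8 were called lower and 5 higher, 13 of 56, where 11.4% of all genes were called, and the median difference of the 56 was −0.19. Paired adjusted p-values below are from limma.

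Of the t-tubule list (other calcium channel subunits and t-tubule proteins), 10 of 16 were tested, 1 fell, 1 rose and 8 did not pass, with a median of −0.55. CAV3, the muscle caveolin, averaged 59.3 ± 32.2 CPM in CTR and 17.0 ± 9.80 CPM in siG9a (SD over 4 libraries) and fell by 1.63 with a paired adjusted p of 0.000150. BIN1, which shapes t-tubule membranes, was at 47.98, 26.7, 9.84 and 43.1 CPM in CTR and 74.8, 58.7, 25.7 and 82.6 CPM in siG9a, higher in 4 of 4 pairs. It rose by 0.99 with a paired adjusted p of 0.00157. CAV3 and BIN1 thus moved in opposite directions, and BIN1 was the only positive difference among the 10 tested genes of this list. SCN4A, the muscle sodium channel, was at 23.03 and 13.2 CPM, CACNG6 at 5.65 and 3.59 CPM and MTMR14 at 81.5 and 71.9 CPM in CTR and siG9a, with adjusted p-values from 0.221 to 0.584.

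Of the list for release and storage in the sarcoplasmic reticulum, 20 of 22 were tested, 3 fell, 2 rose and 15 did not pass, with a median of −0.04. JPH2, a junctophilin related to JPH1, measured 34.3, 37.1, 9.84 and 34.8 CPM in CTR and 7.74, 16.95, 2.85 and 16.1 CPM in siG9a. It was lower in 4 of 4 pairs, with a difference of −1.41 and a paired adjusted p of 0.00113. SPEG, a kinase bound to junctional membranes, fell by 0.98 (adjusted p = 0.000668), and the scaffold gene HOMER1 fell by 0.66 (adjusted p = 0.0169). CALM2 and CALM3, which encode calmodulin, rose by 0.51 and 0.52 (adjusted p = 0.0252 and 0.0332). CALR, a calcium binding protein of the store in most cells, was at 419 and 507 CPM (adjusted p = 0.284).

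Of the list holding the third SERCA gene with pump regulators and cytosolic buffers, 4 of 10 were tested, 2 fell and 2 did not pass, with a median of −0.61. ATP2A3, the SERCA3 gene, averaged 27.8 ± 12.5 and 13.5 ± 6.39 CPM (SD over 4 libraries) and fell by 0.99, with a paired adjusted p of 0.0172. CAMK2D, a calcium and calmodulin dependent kinase, fell by 0.92 (adjusted p = 0.0177). CAMK2G, at 22.4 and 18.005 CPM, and CAMK2B, at 2.61 and 3.12 CPM, did not pass (adjusted p = 0.514 and 0.719).

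Of the widely expressed calcium genes, 22 of 28 were tested, 2 fell, 2 rose and 18 did not pass, with a median of 0.03. ATP2B1, the calcium pump of the surface membrane, measured 306, 253, 189 and 292 CPM in CTR and 138, 79.3, 105 and 151 CPM in siG9a, without overlap. It fell by 1.15 with a paired adjusted p of 2.5e-05. ORAI2, a store-operated channel subunit, fell by 0.66 (adjusted p = 0.0144), and STIM2, a calcium sensor of the store, rose by 0.58 (adjusted p = 0.0251). MCU, the mitochondrial calcium uniporter, rose by 0.82 (adjusted p = 0.0328). CANX and HSPA5, chaperones of the endoplasmic reticulum, did not pass (adjusted p = 0.0848 and 0.739).

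Of the 13 called genes, CAV3, BIN1, JPH2, SPEG and ATP2B1 were called in each of the 10 paired fits and the other 8 lost their call in at least 1 fit that left out a pair, with adjusted p-values up to 0.217. Leaving out pair 1 ended the call of ATP2A3, CALM2, HOMER1, MCU, ORAI2 and STIM2. Leaving out pair 2 ended that of all 8. Leaving out pair 3 ended those of CALM2, CALM3, CAMK2D, HOMER1, MCU, ORAI2 and STIM2, and leaving out pair 4 those of CALM3, CAMK2D and MCU.

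**Figure D5:**
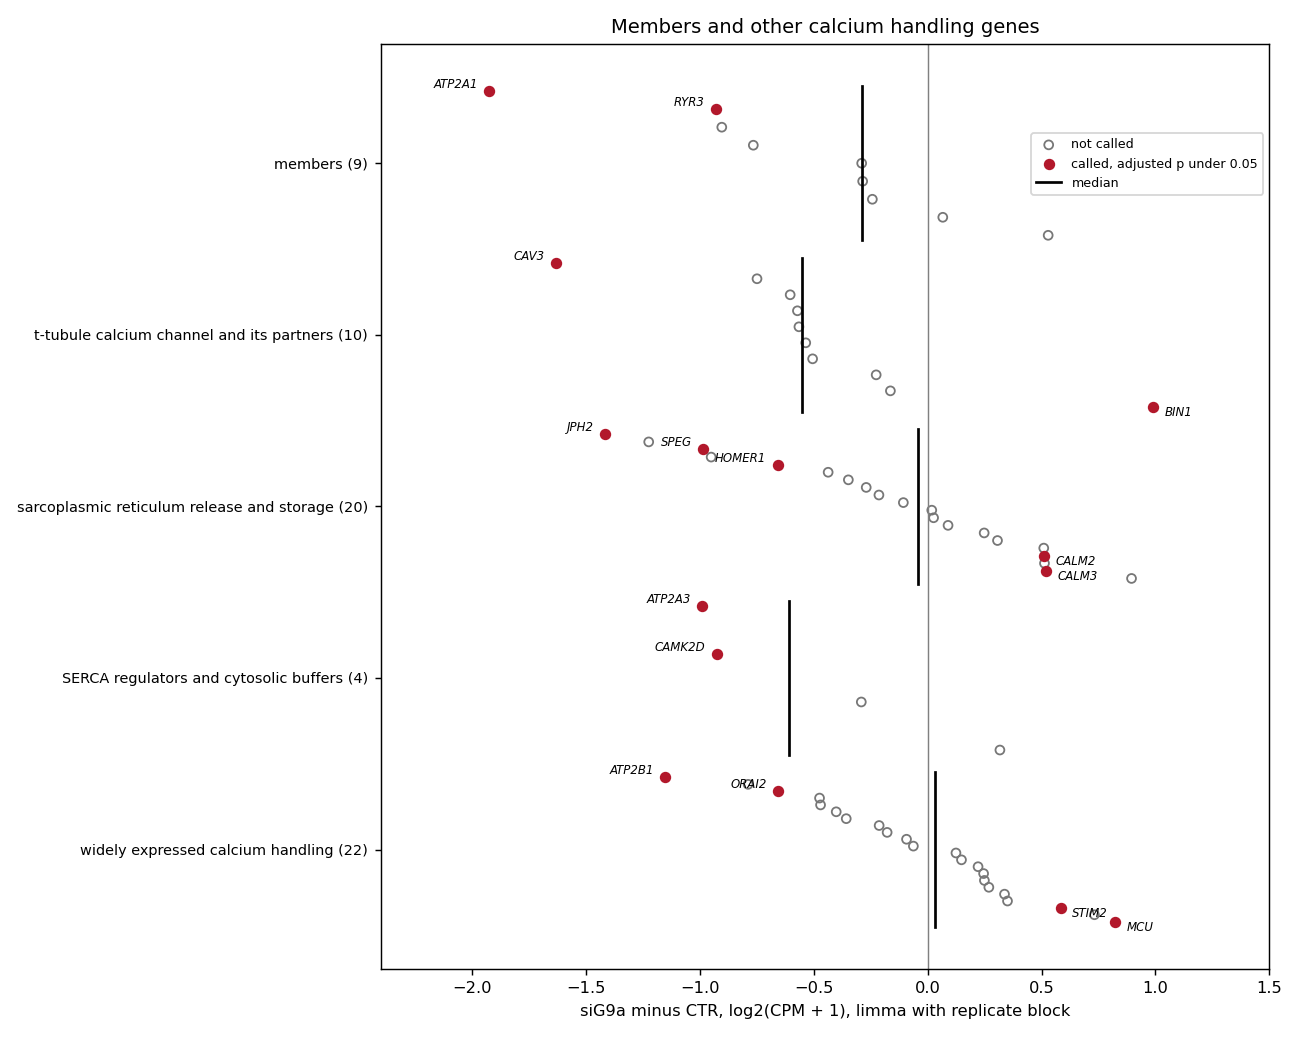
Difference siG9a minus CTR in log2(CPM + 1) from the paired limma fit for the 9 tested genes of the set (members) and the tested genes of the 4 lists; red points have an adjusted p under 0.05, open points do not, and black lines are list medians. ATP2A1 lies farthest left at −1.92, and BIN1 farthest right among called genes at 0.99.

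Markers of muscle and other cell types were read beside these results. Markers called are named after their values were seen. Over all genes tested, the paired limma fit called 6.52% lower and 4.86% higher. Of 16 skeletal muscle markers, 11 were tested, 3 were called lower (DES, CHRNA1 and MYMX, differences of −1.77, −1.15 and −1.19) and 0 higher in the paired limma fit, and MYF5 was at 0. Their summed level was 1073 to 5516 CPM in CTR and 1290 to 4438 CPM in siG9a. Of 10 heart muscle markers, NPPA, MYH6, MYL7 and TBX5 were at 0 in every library, although CASQ2 and ATP2A2 are also heart genes. The summed level of this list was 114 to 472 CPM in CTR and 86.8 to 145 CPM in siG9a. TNNT2, also made by immature skeletal muscle, held 67.6 to 454 CPM of it in CTR and 42.8 to 108 CPM in siG9a. TNNT2 was called lower (−1.75). Fibroblast markers summed to 750 to 4156 CPM and 611 to 3796 CPM with 1 of 6 tested called lower (COL1A1) and POSTN at 0, and smooth muscle markers to 17.2 to 56.1 CPM and 24.5 to 51.05 CPM with 0 of 3 called. Epithelial and neural markers summed to 287 to 10207 CPM in CTR and 328 to 9231 CPM in siG9a, with 2 of 9 tested called lower (CDH1 and UCHL1). The part of these levels in the differences above was not tested.

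In GENCODE release 29, 8 of the 10 genes overlap another gene, among them ATP2A1 (ATP2A1-AS1 and RABEP2 on the other strand), STAC3 (AC137834.1 on the same strand) and RYR3, but not CASQ2 or ATP2A2. Of the 13 called genes of the lists, 9 do. Where the counting split or discarded such reads, their values are uncertain.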

How the data were processed

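Total RNA of 4 CTR and 4 siG9a samples was made into QuantSeq 3′ libraries and sequenced in single-end reads of 75 bases, per the labels' protocols. The submitters' processing notes name FastQC 0.11.8, Trim Galore, STAR 2.5.0a, HTSeq 0.8.0 and edgeR 3.28, and both GRCh38 and hg19, with no role or order, so no coordinates of the measured values are given. The use of strand, the annotation and the filters are not given in the sources used here. The deposited table of the authors holds CPM for 60234 genes to 2 decimals, a unit given by its title and met by the column sums. A change in a few abundant genes moves all others in such values.

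From these, whole reads were recovered from the step between low values (100% whole, within 0.0051 CPM), with totals of 1458825 to 1938665. limma 3.58.1 in R 4.3.3 (eBayes with trend, two-sided) was run on log2(CPM + 1) for genes averaging 1 CPM or more, with the group as its only term and, paired, with the replicate number as a block. P-values were adjusted by Benjamini-Hochberg over all 15092 genes, threshold 0.05. The pseudocount of 1 makes differences of low genes too small. The fits were run on simulated data in which both groups shared the mean of each replicate number, so pairing was built in. There limma recovered 184 of 200 changed genes with the block and 35 without it. The changed genes were all set 1.5 higher or lower on the log2 scale, and genes of low level were not among them. Recovery of smaller differences or of genes of low level was not simulated. Such data cannot show whether the real libraries are paired. Alternatives included edgeR 4.0.16 and DESeq2 1.42.0 on recovered reads. The fit by group alone was planned as the main one, and genes said to fall or rise were called with the block. The pairing comes from the numbers in the sample titles. Deviations from the group means of equally numbered libraries had correlations across genes of 0.50, 0.104, 0.67 and 0.13. CTR replicate 2 with siG9a replicate 4 had 0.14, and CTR replicate 4 with siG9a replicate 2 had 0.091. For numbers 2 and 4 these values do not tell the pairing from its swap. The series text calls the replicates biological without saying what sets them apart, so p-values measure the spread between these libraries only.

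The genes and lists were chosen with earlier results of these data known. Named were all 10 genes, in each list the 4 with the highest mean and the 4 with the smallest paired p, EHMT2, MYOD1 and MYOG (3.69 to 11.7 CPM in CTR, 1.14 to 9.18 CPM in siG9a), and the 3 nearest profiles to each of the 2 most abundant genes. A gene that this rule names is not reported here, but counts in its list. Symbols absent from the table (4 of the lists) were matched by gene identifier. Floors are 3 reads.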

Additional observations from a re-analysis of the deposited data

Results flagged for a closer look

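For each named gene, Dixon's ratio (the gap of an extreme library to its neighbour over the range) was taken in CTR and in siG9a and set against its 95% limit. Of 67 groups tested, 5 had a library beyond it, where chance gives about 3.4, and 4 of the 5 were a library numbered 3. The genes are not independent. Among the 10 genes, RYR3 was at 16.6 CPM in CTR replicate 3 where the other CTR libraries lay between 99.4 and 105.9 CPM, and TRDN was at 2.28 CPM in siG9a replicate 3 where the others lay between 1.03 and 1.21 CPM, a matter of 4 reads against 2. JPH2 was at 9.84 CPM in CTR replicate 3 (others 34.3 to 37.1 CPM) and MYOD1 at 95.3 CPM in the same library (others 817 to 864 CPM). CANX was at 428.4 CPM in siG9a replicate 4 where the others lay between 210 and 233 CPM.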

How the results depend on the processing

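Without the block, pseudocounts of 0.1 and 5, a filter at 5 CPM, median-ratio scaling, eBayes without trend and edgeR left the calls at 0 for the 10 genes, for the 4 lists and for all genes, and dropping the filter gave 18 calls among all genes. DESeq2 without the block called 1 of the 10 genes, 2 of the lists and 291 of all genes. With the replicate block limma called 2 of the 10 genes, 13 of the lists and 1717 of all genes, and edgeR with the block 2, 13 and 1741. DESeq2 with the block called 2, 8 and 969, and limma with the block and median-ratio scaling 2, 13 and 1692. With the block and a pseudocount of 0.1 the counts were 2, 11 and 1363, and with a pseudocount of 5 they were 2, 13 and 1710. Leaving out both libraries numbered 3 without a block, chosen after seeing the data, gave 2, 4 and 413. Leaving out single libraries without the block gave 0 to 2 of the 10 genes, 0 to 2 of the lists and 0 to 300 of all genes. Without CTR replicate 3 these were 2, 2 and 300, and without siG9a replicate 4 all genes gave 2. Leaving out pairs with the block gave 1 to 3, 5 to 12 and 668 to 1393 (951, 668, 1078 and 1393 without pairs 1 to 4). The difference in the ATP2A1 share of the reads on ATP2A1 and ATP2A2 was −11.4 percentage points. It stayed between −13.7 and −9.91 over the leave-outs. The difference in the RYR1 share was 10.02 percentage points and stayed between 6.14 and 13.6.

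Signs turned in 10 of 833 values of single genes under alternatives, the lowest adjusted p among them being 0.880, and the cause was not tested. Over the fits without single libraries, STAC3 ran from −0.79 (without CTR replicate 3) to 0.10 (without CTR replicate 4), RYR1 from −0.72 (without CTR replicate 3) to 0.0308 (without siG9a replicate 3), and JPH1 from −0.57 (without siG9a replicate 3) to 0.0559 (without CTR replicate 3). ATP2A2 ran from −0.0045 (without siG9a replicate 1) to 0.17 (without CTR replicate 4) and was −0.0671 without pair 1 with the block. CAMK2B ran from −0.0121 (without CTR replicate 2) to 0.56 (without CTR replicate 3) and was −0.0847 without pair 2 with the block. HSPA5 ran from −0.26 (without siG9a replicate 4) to 0.0858 (without siG9a replicate 3), with 0.02 without CTR replicate 4 and 0.013 without pair 2 with the block. The lengths and identities of the proteins were not run. Depth limits CACNA1S, TRDN and CASQ2, which had 3 reads or fewer in 8, 7 and 2 libraries.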
